A study of Homo sapiens with 6 samples.

Results

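Transcripts of 40 genes of cell adhesion to the extracellular matrix, 20 integrin subunits and 20 cytoplasmic adaptors of focal adhesions, were compared in CRP2-depleted and control breast cancer cells. The members were taken as a fixed list of gene symbols and found by their Ensembl identifiers among the 58395 genes of the count table, and all 40 were present. The siCRP2 group consisted of 3 libraries from MDA-MB-231 cells, a human line of triple-negative breast cancer, transfected with siCRP2#a, a single siRNA against CSRP2, the gene of cysteine-rich protein 2 (CRP2). The siCTR group consisted of 3 libraries from cells of the same line that received a non-targeting control siRNA. RNA was taken 65 h after transfection by the labels, and slightly later by the study's methods. One cell line and one siRNA sequence were used, so an effect of CRP2 loss and another effect of this siRNA cannot be told apart in these libraries. Each library carries a code (0412, 0611 or 1311) that occurs once in each group, and the 3 values of a group are given in that order throughout.

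Integrins are receptors made of one α and one β chain, and the pair that forms decides which matrix protein the cell can hold. Their short cytoplasmic tails have no enzymatic activity. Talins and kindlins bind the β tail and switch the receptor to its active form, vinculin and the ILK-PINCH-parvin complex tie it to actin, and FAK, paxillin, p130Cas and their partners carry the signal onward into the cell. In invasive breast cancer cells these proteins serve both traction on the matrix and the assembly of matrix-degrading protrusions. The adaptor TGFB1I1 (Hic-5) and CRP2 itself belong to the wider family of LIM domain proteins.

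CSRP2, at chr12:76858709-76879023 of GRCh38, had 2.17, 1.78 and 1.89 CPM in siCRP2 libraries, against 13.7, 11.7 and 11.4 CPM in siCTR libraries, where CPM are counts scaled to a common library total after TMM normalization (log2 fold change -2.66 ± 0.178, adjusted p = 2.42e-08; fold changes are given with their standard error, and adjusted p-values come from edgeR's quasi-likelihood test with Benjamini-Hochberg adjustment over 23806 genes). The targeted transcript was thus low in all 3 siCRP2 libraries. The siCRP2 libraries held 18346442 to 39115778 counts and the siCTR libraries 17336798 to 25321830, so 1 count is worth 0.0256 to 0.0582 CPM. The study calls the 3 libraries of a group biological replicates. Each edgeR p-value rests on the spread among them, estimated for a gene with the help of the other genes. Breast cancer cell markers (13 genes, with VIM, CD44, KRT8 and KRT18 among them) summed to 4981 to 5818 CPM in siCRP2 libraries and 5079 to 6636 CPM in siCTR libraries, with PGR, the progesterone receptor, at 0. Of 10 leukocyte markers 9 had a mean under 1 CPM, and the list summed to 10.1 to 11.5 CPM in siCRP2 libraries and 31.1 to 40.4 CPM in siCTR libraries, nearly all of it CD14.

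More integrin and adaptor transcripts fell than rose in CRP2-depleted cells. Among the 19 integrin subunits with enough counts to test, 9 fell and 1 rose at an adjusted p under 0.05, with a median log2 fold change of -0.55. Among the 20 adaptors, 6 fell and 2 rose, with a median of -0.25. Over all 23806 genes tested 11.5% fell and 12.5% rose, with a median of -0.02, so the share of integrins that fell (47.4%) was above that background and that of the adaptors (6 of 20) was above it by less. Restricted to members with a mean of at least 1 CPM, 9 of 13 integrins (69.2%) fell and 1 rose, and 6 of 18 adaptors (33.3%) fell and 2 rose, against 17.8% lower and 21.9% higher among the 13196 genes at that level. The median log2 fold change at that level was -0.55 for integrins, -0.13 for adaptors and 0.05 for all genes. With a fold change of at least 1.5 as well, 5 integrins fell and 1 rose and 3 adaptors fell, against 7.80% lower and 4.58% higher over all genes. The difference between the integrin and the adaptor lists was not tested.

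**Figure D1:**
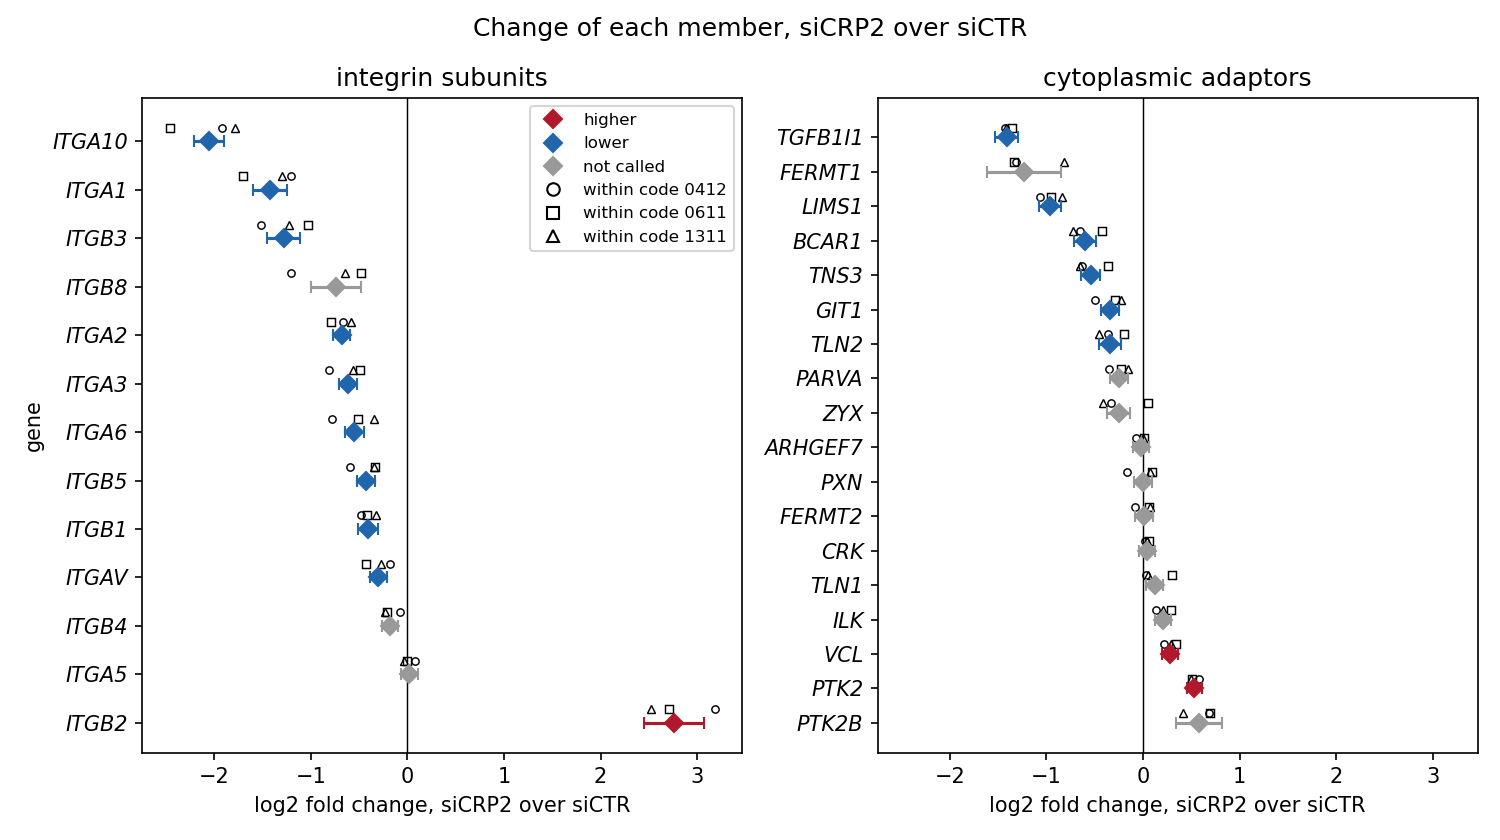
Log2 fold change, siCRP2 over siCTR, for the 13 integrins and 18 adaptors averaging at least 1 CPM. The 6 integrins and 2 adaptors tested below that level are not drawn. Diamonds show the edgeR estimate and bars its standard error. Blue marks called members that fell and red called members that rose (adjusted p cutoff 0.05). Members without a call are grey. Small open symbols show the ratio within each library code. Most integrins lie left of 0, ITGB2 lies far to the right at 2.76, and the adaptors spread around 0 with TGFB1I1 and LIMS1 on the left and PTK2 on the right.

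Among the α subunits, 6 of 11 tested fell and the other 5 did not pass the test in either direction. Collagen-binding integrins all use the β1 chain, and their α chains include the 2 members with the largest falls of any well-counted integrin. ITGA10, the α chain of the collagen receptor α10β1 known from cartilage, had 7.83, 5.30 and 6.94 CPM in siCRP2 libraries, against 29.8, 29.4 and 23.9 CPM in siCTR libraries (log2 fold change -2.05 ± 0.153, adjusted p = 8.28e-08). Every siCRP2 library was far below every siCTR library. ITGA1, which pairs with β1 to bind collagen IV and collagen I, had 14.0, 16.6 and 16.8 CPM in siCRP2 libraries, against 32.2, 54.1 and 41.4 CPM in siCTR libraries (log2 fold change -1.42 ± 0.173, adjusted p = 1.24e-04). Its siCTR libraries were spread more widely than its siCRP2 libraries, yet the groups did not overlap. ITGA2, the α chain of the main fibrillar collagen receptor and adjacent to ITGA1 on chromosome 5 (chr5:52787916-52959209 and chr5:52989340-53094779, both on the plus strand), had 281, 290.5 and 301 CPM in siCRP2 libraries, against 448, 501 and 448 CPM in siCTR libraries (log2 fold change -0.68 ± 0.0852, adjusted p = 1.83e-05). All 3 siCRP2 libraries were lower by a similar amount. ITGA11, another collagen-binding α chain, had 2 counts over the siCRP2 libraries and 1 over the siCTR libraries. An exon stretch of 499 bases of ITGA1 overlaps PELO, a ribosome rescue factor on the same strand with 80.0 CPM in siCRP2 libraries and 67.4 CPM in siCTR libraries, so reads of that stretch cannot be assigned to one gene with certainty.

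Laminin-binding α chains also fell where they were well counted. ITGA3, which forms the laminin receptor α3β1 and was the most abundant α transcript per kilobase of exon, had 790.4, 946 and 918 CPM in siCRP2 libraries, against 1383, 1325 and 1350.3 CPM in siCTR libraries (log2 fold change -0.61 ± 0.0922, adjusted p = 1.09e-04). No siCRP2 library reached the siCTR range. ITGA6, which pairs with β1 or, in hemidesmosomes, with β4, had 300.3, 347 and 319 CPM in siCRP2 libraries, against 516, 494 and 403 CPM in siCTR libraries (log2 fold change -0.55 ± 0.10, adjusted p = 6.10e-04). The groups were again apart, with siCTR 1311 the nearest to the siCRP2 libraries. ITGA7, a laminin receptor chain of muscle, stayed near 1 CPM (1.22, 1.13 and 0.614 CPM in siCRP2 against 0.711, 1.05 and 1.01 CPM in siCTR libraries; log2 fold change 0.06 ± 0.353, adjusted p = 0.92), and its libraries overlapped.

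The α chains of receptors that read the RGD motif of fibronectin and vitronectin were measured as follows, and the difference between their fold changes was not tested. ITGA5, the α chain of the fibronectin receptor α5β1, had 318, 327 and 282 CPM in siCRP2 libraries, against 301, 327 and 288 CPM in siCTR libraries, with interleaved groups and a log2 fold change of 0.02 ± 0.0891 (adjusted p = 0.915, edgeR). ITGAV, which pairs with β1, β3, β5, β6 and β8, had 225, 229 and 230.3 CPM in siCRP2 libraries, against 255, 309 and 277 CPM in siCTR libraries (log2 fold change -0.30 ± 0.0880, adjusted p = 0.0193). The siCRP2 libraries were nearly equal and all lower, but the adjusted p was 0.053 without siCRP2 0412, 0.0606 without siCRP2 1311 and 0.127 without siCTR 0611. ITGA8 had 1 count in all, in a siCRP2 library, and was not tested. ITGA4 and ITGA9, outside this group of receptors, are α chains best known from leukocytes and, for ITGA9, epithelia. They had 0 and 3 counts over the siCRP2 libraries and 3 and 6 over the siCTR libraries. At these depths no difference could be detected for ITGA4, ITGA8, ITGA9 and ITGA11.

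**Figure D2:**
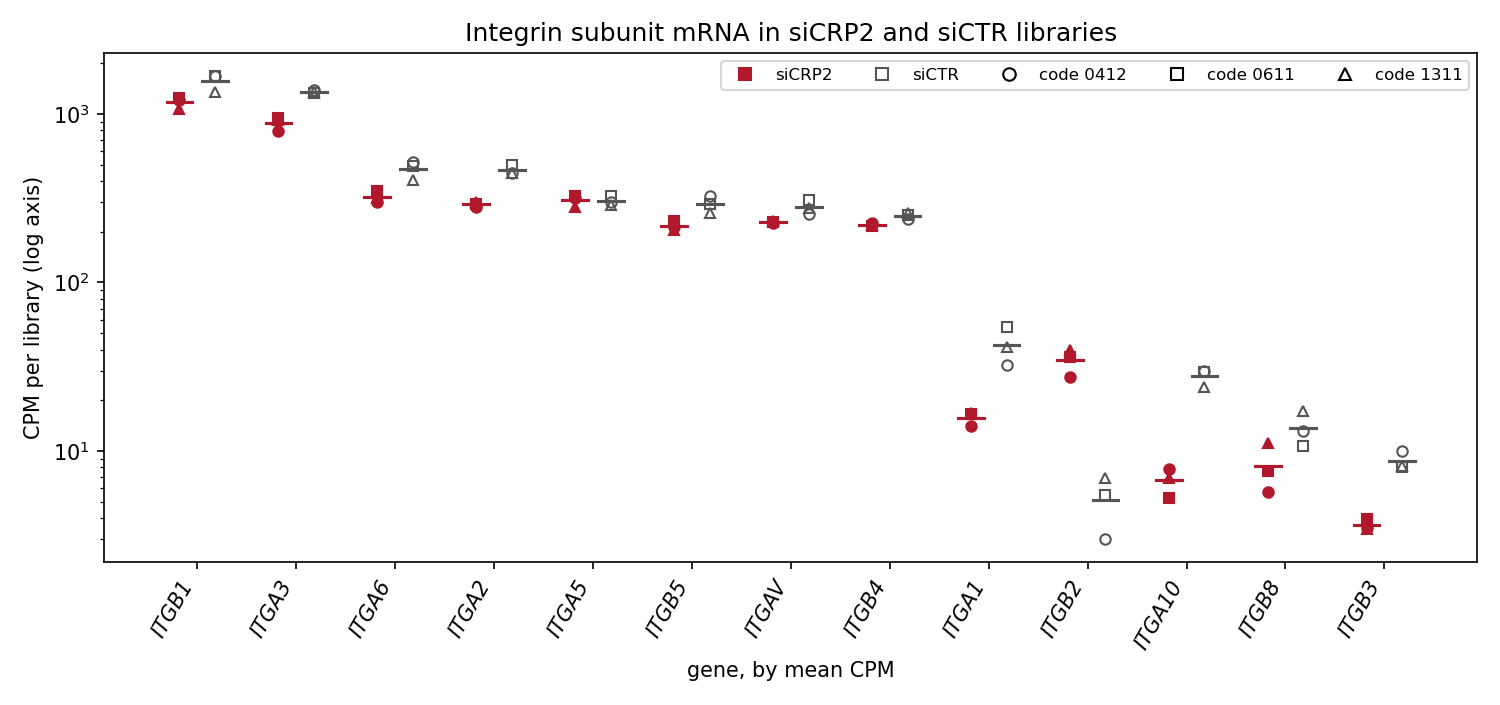
Level of the 13 integrin subunits with a mean of at least 1 CPM in each library (log axis, CPM; red filled, siCRP2 on the left; grey open, siCTR on the right; marker shape gives the library code and the bar the mean of 3). The siCRP2 points sit below the siCTR points for most subunits, overlap with them for ITGA5 and ITGB8, and sit above them for ITGB2.

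Of the 8 β subunits 3 fell, 1 rose and 4 did not pass. ITGB1, the partner of most α chains, had 1204, 1249 and 1074 CPM in siCRP2 libraries, against 1675, 1668 and 1341 CPM in siCTR libraries (log2 fold change -0.41 ± 0.103, adjusted p = 0.00715). The fall was moderate, 0.753 of the siCTR level, and the adjusted p was 0.0642 without siCRP2 1311 and 0.0571 without siCTR 0611. A processed pseudogene, ITGB1P1, had a mean of 5.82 CPM in siCRP2 libraries and 8.61 CPM in siCTR libraries. Reads that match both genes cannot be assigned to one of them with certainty. ITGB3, the β chain of the vitronectin receptor αvβ3, had 3.49, 3.94 and 3.46 CPM in siCRP2 libraries, against 10, 8.09 and 8.14 CPM in siCTR libraries (log2 fold change -1.28 ± 0.174, adjusted p = 4.20e-05). It was scarce in both groups and lower in every siCRP2 library. A gene on the same strand, ENSG00000259753, overlaps 2266 exon bases of ITGB3 and had 0 CPM in both groups. Reads of that stretch cannot be assigned to one gene with certainty. ITGB5, the other main vitronectin receptor chain of epithelial cancer cells, had 214, 233 and 204 CPM in siCRP2 libraries, against 324, 294 and 259 CPM in siCTR libraries (log2 fold change -0.43 ± 0.0947, adjusted p = 0.00295), also without overlap.

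ITGB4, the laminin-binding hemidesmosome chain, differed little, with 225, 217 and 219 CPM in siCRP2 libraries, against 238, 251 and 258 CPM in siCTR libraries (log2 fold change -0.18 ± 0.0802, adjusted p = 0.133). The siCRP2 libraries were all lower, and with the library code as a replicate block the adjusted p was 0.0162. ITGB8, which pairs with αv and activates latent TGF-β, had 5.71, 7.65 and 11.1 CPM in siCRP2 libraries, against 13.2, 10.7 and 17.3 CPM in siCTR libraries (log2 fold change -0.74 ± 0.256, adjusted p = 0.0712; 1.57e-10 with the block). Here the highest siCRP2 library passed the lowest siCTR library, although each siCRP2 library was below the siCTR library of its own code. ITGB6, another TGF-β-activating partner of αv, had 8 counts over the siCRP2 libraries and 24 over the siCTR libraries (log2 fold change -1.83 ± 0.730, adjusted p = 0.0849; 0.0088 with the block), with the 0412 pair in the opposite direction. ITGB7, a leukocyte chain, had 4 counts in each group.

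ITGB2 was the exception in direction. It encodes the β2 chain of the leukocyte integrins (chr21:44885953-44931989, minus strand) and had 27.6, 36.0 and 39.8 CPM in siCRP2 libraries, against 3.00, 5.47 and 6.91 CPM in siCTR libraries (log2 fold change 2.76 ± 0.310, adjusted p = 0.00105). The lowest siCRP2 library was well above the highest siCTR library, and the level was 6.79 times that of the siCTR group. Its α partners were nearly undetected: ITGAL had 1 count over the siCRP2 libraries and 0 over the siCTR libraries, ITGAM 8 and 3, ITGAX 0 and 2, and ITGAD 0 in both. The pan-leukocyte marker PTPRC had a mean of 0.336 CPM in siCRP2 libraries and 0.428 CPM in siCTR libraries, and 9 of the 10 leukocyte markers were under 1 CPM, as given above. The part of other cells in the ITGB2 level was not tested. In bulk RNA, more cells with a transcript and more of it per cell cannot be told apart. An antisense gene, ITGB2-AS1, overlaps 303 exon bases of ITGB2 and had a mean of 4.0 CPM in siCRP2 libraries and 1.23 CPM in siCTR libraries. The strand setting of the counts is not given in the sources used here, so reads of the shared stretch may belong to either gene.

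Levels were compared between the listed chains as CPM per kilobase of exon, with all annotated exons of a gene merged. Merged exons exceed the canonical transcript to an unequal degree, so the orders, sums and shares depend on this choice. ITGA5 has 7383 merged bases, against 3150 of coding sequence and 1032 of 3′ UTR in its canonical GENCODE transcript. For ITGA2 these are 7896, 3546 and 4180. ITGAE, an α chain outside the list, had a mean of 28.5 CPM in siCRP2 libraries and 25.0 CPM in siCTR libraries. It is not in this order or in the α sums and shares that follow. In siCRP2 libraries the order of α chains was ITGA3 (90.3 ± 8.45 CPM per kilobase, SD, n = 3), ITGA6 (48.2 ± 3.49), ITGA5 (41.8 ± 3.27), ITGA2 (36.8 ± 1.24), ITGAV (11.8 ± 0.148), ITGA10 (1.07 ± 0.205) and ITGA1 (0.853 ± 0.0838), and only ITGA10 and ITGA1 overlapped as neighbours. In siCTR libraries the same measure gave ITGA3 (138 ± 2.97), ITGA6 (70.5 ± 8.92), ITGA2 (59.0 ± 3.88), ITGA5 (41.4 ± 2.73), ITGAV (14.5 ± 1.42), ITGA10 (4.44 ± 0.527) and ITGA1 (2.29 ± 0.593), with ITGA6 and ITGA2 overlapping. By this measure ITGA5 stood above ITGA2 in siCRP2 libraries and below it in siCTR libraries, an order that depends on the lengths used. Among β chains ITGB1 led in both groups (80.7 ± 6.22 in siCRP2 and 107 ± 13.1 in siCTR libraries), followed by ITGB5 (33.4 ± 2.27 in siCRP2 and 44.9 ± 4.96 in siCTR) and ITGB4 (32.6 ± 0.595 in siCRP2 and 36.8 ± 1.52 in siCTR), which overlapped in siCRP2 libraries only. ITGB2 came next in siCRP2 libraries (4.72 ± 0.859), while in siCTR libraries (0.703 ± 0.271) it stood below ITGB3 (1.28 ± 0.162) and ITGB8 (0.906 ± 0.223) and overlapped ITGB8.

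Summed per kilobase, α transcripts came to 218, 243 and 232 CPM per kilobase in siCRP2 libraries, against 336, 341 and 314 in siCTR libraries (log2 ratio -0.52; exact permutation p = 0.1, two-sided, the smallest that 3 against 3 libraries allow). The β transcripts came to 154, 159.8 and 144 in siCRP2 libraries, against 203, 199.6 and 173 in siCTR libraries (log2 ratio -0.33; exact permutation p = 0.1). Both sums were lower in every siCRP2 library. As a share of the 12 listed α transcripts, ITGA5 took 18.1% ± 1.63 in siCRP2 libraries and 12.5% ± 0.452 in siCTR libraries, and ITGAV took 5.11% ± 0.234 in siCRP2 and 4.39% ± 0.412 in siCTR libraries (exact permutation p = 0.1 for each, SD, n = 3). ITGA10 took 0.468% ± 0.113 in siCRP2 libraries and 1.34% ± 0.108 in siCTR libraries. ITGB1 held 52.9% ± 1.52 of β transcripts in siCRP2 libraries and 55.8% ± 2.31 in siCTR libraries, with overlapping groups (exact permutation p = 0.3, without pairing by code). By code its share was 53.8%, 53.7% and 51.1% in siCRP2 libraries, against 56.8%, 57.4% and 53.1% in siCTR libraries, lower in all 3 codes. ITGB2 held 3.11% ± 0.660 in siCRP2 libraries and 0.375% ± 0.171 in siCTR libraries. Since chains are fixed parts of a sum, a smaller share of one means a larger share of the others.

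**Figure D3:**
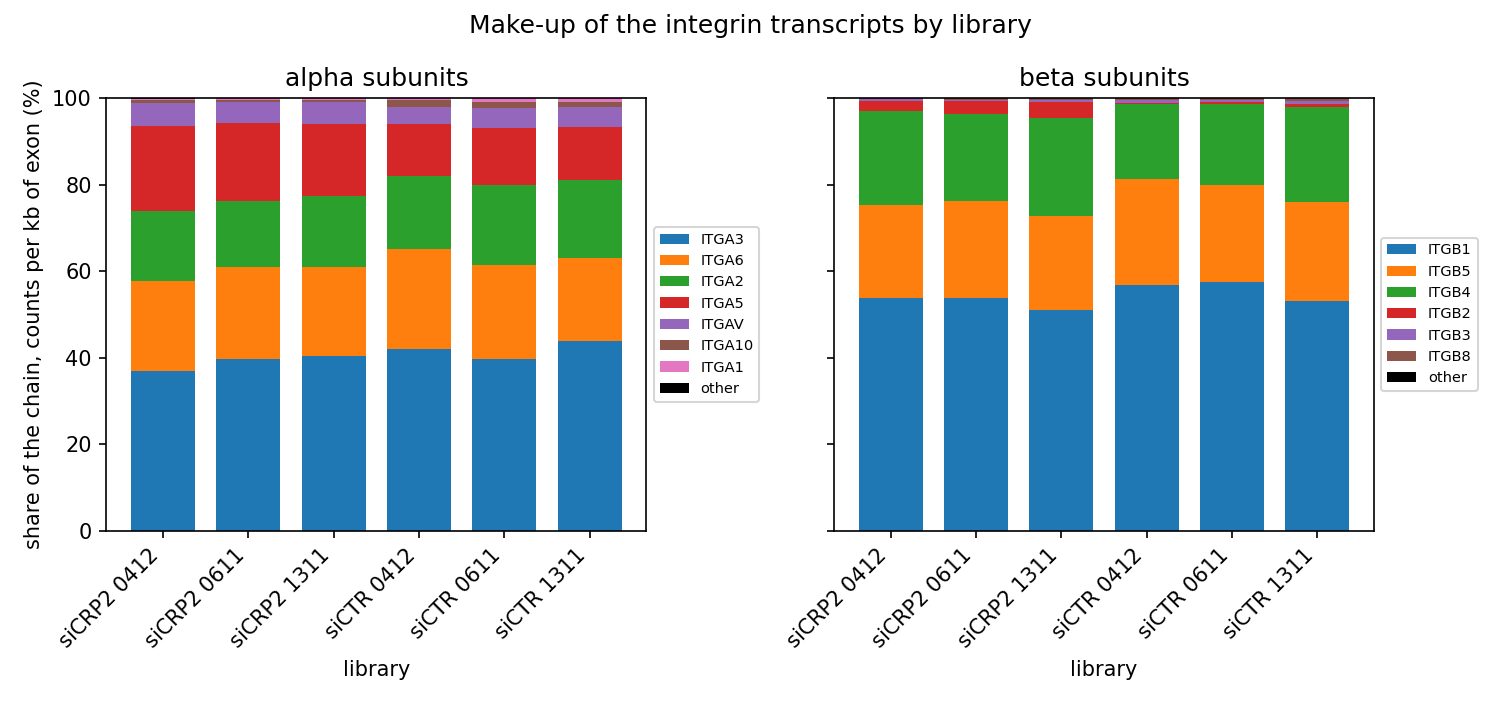
Share of each chain in the summed level of the 12 listed α transcripts (1 panel) and the 8 listed β transcripts (the other panel). Levels are per kilobase of exon and shares in percent, with 1 stacked bar per library and siCRP2 bars left of siCTR bars. ITGA3 and ITGB1 take the largest part in all 6 libraries, and the ITGA5 band is wider in siCRP2 libraries (18.1% on average) than in siCTR libraries (12.5%).

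Of the talins, kindlins, vinculin and zyxin, TLN2 fell and VCL rose, each by a small amount, while TLN1, FERMT1, FERMT2 and ZYX did not pass the test without the block. TLN1, talin 1, the activator of most integrins, had 840.3, 942 and 906 CPM in siCRP2 libraries, against 824, 764 and 878 CPM in siCTR libraries. The groups overlapped (log2 fold change 0.12 ± 0.0899, adjusted p = 0.354). TLN1 led the adaptors per kilobase of merged exon in both groups, an order that depends on this choice of length. ILK, next in that order, has 3484 merged bases, against 1359 of coding sequence and 259 of 3′ UTR in its canonical transcript. TLN2, the scarcer talin, was slightly lower with 17.5, 19.4 and 18.9 CPM in siCRP2 libraries, against 22.4, 22.4 and 25.9 CPM in siCTR libraries (log2 fold change -0.34 ± 0.117, adjusted p = 0.045). This was the weakest of the 18 calls, with an adjusted p of 0.0612 in edgeR's exact test and of 0.0676 (without siCRP2 0611) to 0.160 (without siCTR 1311) when any 1 library other than siCTR 0412 was left out. VCL, vinculin, which reinforces talin's hold on actin, rose and had 725, 719 and 687 CPM in siCRP2 libraries, against 621, 569 and 564 CPM in siCTR libraries (log2 fold change 0.28 ± 0.0849, adjusted p = 0.0218). The siCRP2 libraries were all higher, by 1.22 times, but the adjusted p was 0.0632 (without siCTR 1311) to 0.115 (without siCRP2 0611) when any 1 library other than siCTR 0412 was left out. AP3M1, on the other strand, overlaps 1109 exon bases of VCL and had a mean of 54.3 CPM in siCRP2 libraries and 93.7 CPM in siCTR libraries. FERMT2, kindlin-2, differed by 0.01 on the log2 scale, and ZYX, zyxin, a sensor of tension on actin fibres, had 126, 129 and 139 CPM in siCRP2 against 158, 125 and 184 CPM in siCTR libraries (log2 fold change -0.25 ± 0.120, adjusted p = 0.173; 9.15e-04 with the block) and overlapped. FERMT1, kindlin-1, the epithelial kindlin, had 8.99, 5.73 and 5.27 CPM in siCRP2 libraries, against 22.4, 14.4 and 9.33 CPM in siCTR libraries (log2 fold change -1.23 ± 0.387, adjusted p = 0.0792; 2.38e-22 with the block). Its libraries varied widely with the code in both groups, and every siCRP2 library was below all siCTR libraries.

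In the ILK-PINCH-parvin complex, LIMS1 (PINCH-1), a protein of LIM domains that links ILK to growth factor receptor adaptors, fell. It had 25.9, 24.2 and 23.5 CPM in siCRP2 libraries, against 54.4, 46.7 and 41.9 CPM in siCTR libraries (log2 fold change -0.96 ± 0.113, adjusted p = 9.94e-06). Its level was 0.513 of that in siCTR libraries, with each siCRP2 library far below the siCTR range. The near-identical copies LIMS3 and LIMS4 were at 0 counts, but reads that match several copies cannot be assigned to one gene with certainty. ILK, the integrin-linked pseudokinase, had 281, 295 and 284 CPM in siCRP2 against 257, 241 and 245 CPM in siCTR libraries (log2 fold change 0.21 ± 0.0801, adjusted p = 0.0681, and 0.00281 with the block), higher in each siCRP2 library. TAF10, on the other strand, overlaps 2374 of the 3484 exon bases of ILK. It had a mean of 1.89 CPM in siCRP2 libraries and 3.23 CPM in siCTR libraries. With the strand setting unknown, reads of that stretch may belong to either gene. PARVA, α-parvin, had 142, 132 and 131 CPM in siCRP2 against 181, 155 and 145 CPM in siCTR libraries (log2 fold change -0.25 ± 0.0923, adjusted p = 0.0609; 5.06e-04 with the block), lower in each. PARVB had 1 count over the siCRP2 libraries and 3 over the siCTR libraries.

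Among adaptors, those of signalling held both the largest called fall and the largest called rise. TGFB1I1 (Hic-5), a paxillin paralogue that moves between focal adhesions and the nucleus, had 19.4, 15.9 and 16.7 CPM in siCRP2 libraries, against 52.1, 40.9 and 44.7 CPM in siCTR libraries (log2 fold change -1.41 ± 0.121, adjusted p = 3.38e-07). Each siCRP2 library was lower than its siCTR partner of the same code by a nearly equal factor (log2 ratios -1.43, -1.36 and -1.42). Paxillin itself, PXN, had 327, 324 and 355 CPM in siCRP2 against 364, 305 and 339 CPM in siCTR libraries and overlapped (log2 fold change 0.00 ± 0.0893, adjusted p = 0.989). PTK2, focal adhesion kinase, rose and had 298, 288 and 286 CPM in siCRP2 libraries, against 199.7, 202 and 202 CPM in siCTR libraries (log2 fold change 0.53 ± 0.0789, adjusted p = 1.01e-04). The values within each group were almost the same and the groups lay far apart. PTK2B, the related kinase PYK2, had 46.6, 62.9 and 67.5 CPM in siCRP2 libraries, against 29.1, 38.8 and 51.0 CPM in siCTR libraries (log2 fold change 0.58 ± 0.240, adjusted p = 0.155; 5.32e-14 with the block), with overlapping ranges and a higher siCRP2 library in each code.

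BCAR1 (p130Cas), the scaffold that FAK and Src phosphorylate, had 60.5, 72.8 and 74.8 CPM in siCRP2 libraries, against 95.1, 97.5 and 123 CPM in siCTR libraries (log2 fold change -0.60 ± 0.113, adjusted p = 0.00107). It was lower in every siCRP2 library, whereas CRK, the adaptor that docks to phosphorylated p130Cas, had 155, 171 and 158 CPM in siCRP2 against 153, 164 and 154 CPM in siCTR libraries and overlapped (log2 fold change 0.04 ± 0.0815, adjusted p = 0.777). GIT1, an Arf GTPase-activating protein that binds paxillin, had 54.2, 56.3 and 65.5 CPM in siCRP2 libraries, against 76.8, 68.7 and 77.1 CPM in siCTR libraries (log2 fold change -0.34 ± 0.0962, adjusted p = 0.016), and lost the call without siCRP2 0412 (adjusted p = 0.0676) or siCRP2 0611 (0.0724). Its partner ARHGEF7 (β-PIX), an exchange factor for Rac and Cdc42, had 69.5, 72.4 and 75.3 CPM in siCRP2 against 72.9, 71.8 and 75.3 CPM in siCTR libraries and did not pass (log2 fold change -0.02 ± 0.0840, adjusted p = 0.906). TNS3, tensin-3, which binds β tails in fibrillar and focal adhesions, had 217, 273 and 251 CPM in siCRP2 libraries, against 335, 350.1 and 393 CPM in siCTR libraries (log2 fold change -0.54 ± 0.0979, adjusted p = 5.64e-04), without overlap. TNS1 was near the limit of detection with 10 counts over the siCRP2 libraries and 24 over the siCTR libraries (log2 fold change -1.50 ± 0.591, adjusted p = 0.0782). Over all 20 adaptors the level summed per kilobase was 458, 481 and 476 CPM per kilobase in siCRP2 libraries, against 476, 439 and 479 in siCTR libraries (log2 ratio 0.02; exact permutation p = 0.7, two-sided).

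**Figure D4:**
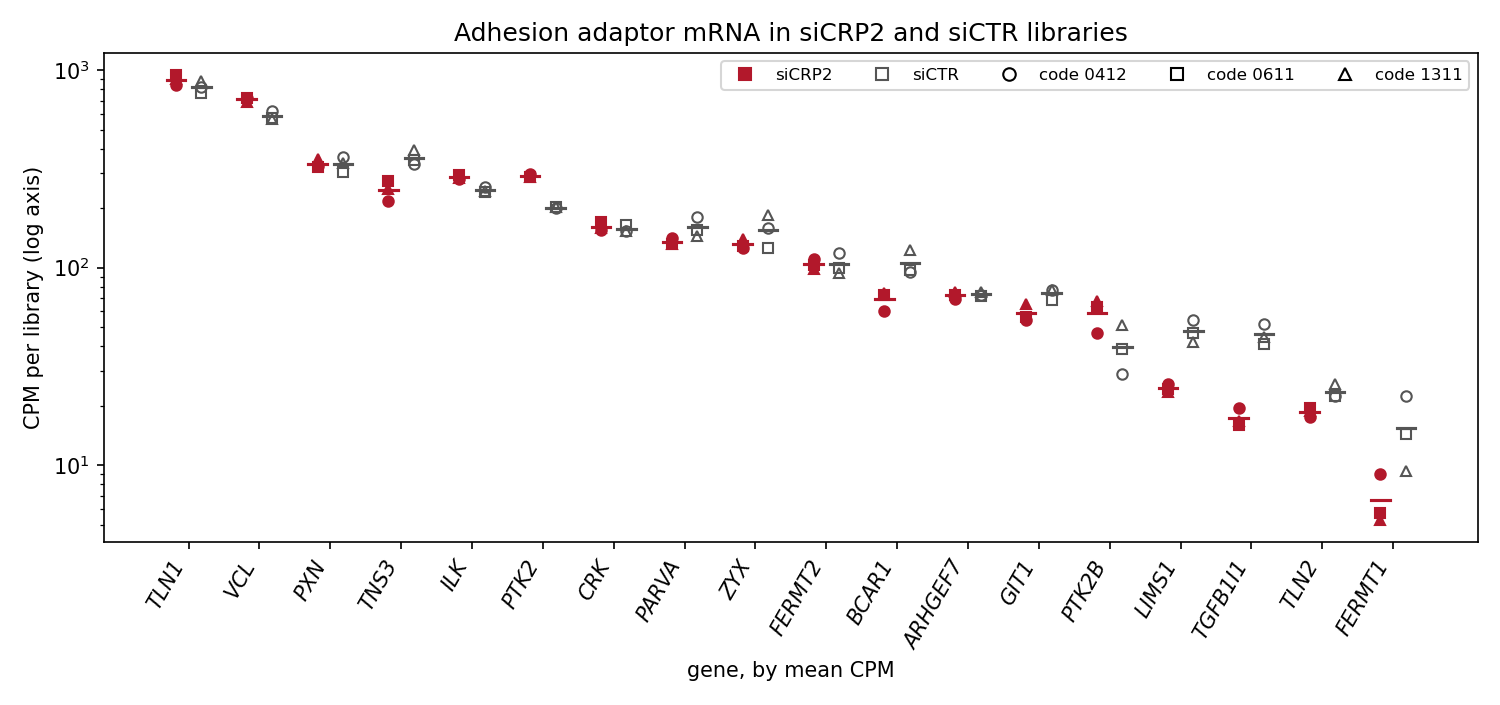
Level of the 18 adaptors with a mean of at least 1 CPM in each library (log axis, CPM; red filled, siCRP2 on the left; grey open, siCTR on the right; marker shape gives the library code and the bar the mean of 3). TGFB1I1 and LIMS1 stand lower in siCRP2 libraries and PTK2 higher, while TLN1, PXN, CRK, FERMT2 and ARHGEF7 overlap.

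The promoter of TGFB1I1 is shown because CRP2 is known from smooth muscle as a cofactor of serum response factor (SRF), whose binding sequence is the CArG box, and because this gene had the largest called fall of the adaptors. RefSeq promoters (GRCh38.p14, 250 bases before to 50 after the start of transcription) were matched for 30 of the 40 members, and 2 of them hold the box, TGFB1I1 and ITGB6. The motif has the same form on both strands, and 454 of 35116 promoters (1.29%) hold it. In TGFB1I1 (chr16:31472955-31473254, plus strand) it begins 51 bases before the start site and is set in capitals.
TGFB1I1 promoter: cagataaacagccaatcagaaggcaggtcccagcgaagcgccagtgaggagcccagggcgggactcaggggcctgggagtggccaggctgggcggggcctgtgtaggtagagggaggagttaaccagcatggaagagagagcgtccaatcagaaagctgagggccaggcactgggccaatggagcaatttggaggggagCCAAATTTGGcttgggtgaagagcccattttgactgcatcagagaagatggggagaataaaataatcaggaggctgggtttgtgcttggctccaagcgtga
The match describes the letters only, as binding was not measured in these libraries. In ITGB6, whose counts were low, the box begins 60 bases before the start.

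Short windows of member transcripts are shown because genes carrying the bases GCCTCAC had lower fold changes across these libraries, the reason why the sequence was picked from the same data. Its presence in members is therefore a description, given with no test, and its part in the falls was not tested. Each line gives the 30 bases around 1 match on the sense strand of the canonical GENCODE transcript, with the 7 bases in capitals, and not every match is shown.
CSRP2, coding sequence, across an exon junction: agagagtgttcaGCCTCACaggcctacaac
ITGB3, 3′ UTR, chr17:47312987-47313016, plus strand: atttgagacaaaGCCTCACtcttgttgccc
LIMS1, 3′ UTR, chr2:108687047-108687076, plus strand: ataggtcattttGCCTCACtcatttgccaa
TLN2, 3′ UTR, chr15:62840827-62840856, plus strand: gcctcccctcatGCCTCACcgtgtctcagg
TLN1, 3′ UTR, chr9:35697087-35697116, minus strand: gccagcacctaaGCCTCACaaagtgtcgtt
ARHGEF7, 3′ UTR, chr13:111304756-111304785, plus strand: ctgcagaacctgGCCTCACctggacttttc
TGFB1I1, coding sequence, chr16:31474411-31474440, plus strand: gatagactgatgGCCTCACtctctgacttc
BCAR1, coding sequence, chr16:75235081-75235110, minus strand: ctgcacggcaatGCCTCACtgctcttcaga
TNS3, coding sequence, across an exon junction: gcttcagaagcgGCCTCACctctgccagat
Of 31 members with a mean of at least 1 CPM, 6 (19.4%) held the bases in the 3′ UTR, against 1333 of 11750 protein-coding genes (11.3%). Of these 6 members, ITGA1, ITGB3, LIMS1 and TLN2 fell, and TLN1 and ARHGEF7 did not pass the test. Of the other 25 members 11 fell and 3 rose. Among all protein-coding genes at that level, 567 of the 1333 with the bases fell and 143 rose. Of the 10417 without them, 1569 fell and 2642 rose. The median 3′ UTR length was 1675 bases in the 31 members and 1382.5 bases in all these genes, and the shares were not adjusted for it. The median log2 fold change was -0.65 for the 6 and -0.30 for the other 25, against -0.29 and 0.09 over all protein-coding genes with and without the bases. In the whole transcript 10 of 31 members (32.3%) held them, against 24.3% of all. Of these 10 members 7 fell and 0 rose. Of the 21 members without a match in their canonical transcripts 8 fell and 3 rose. The 8 were ITGA2, ITGA3, ITGA6, ITGA10, ITGAV, ITGB1, ITGB5 and GIT1. Among all protein-coding genes at that level, 1009 of 2855 with the bases fell and 329 rose. Of the 8895 without them, 1127 fell and 2456 rose.

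Genes around these receptors were counted from 3 further lists. Of 30 integrin ligands of the matrix and cell surface, 10 fell and 5 rose (median log2 fold change -0.32). At a mean of at least 1 CPM 35.7% were lower and 17.9% higher, against 17.8% and 21.9% of all genes. COL6A1, a collagen VI chain, had 103, 110.5 and 128 CPM in siCRP2 libraries, against 224, 249 and 263 CPM in siCTR libraries (log2 fold change -1.10 ± 0.0971, adjusted p = 4.43e-07). COL1A2, a collagen I chain, had 46.8, 59.6 and 58.9 CPM in siCRP2 libraries, against 110.4, 134 and 160 CPM in siCTR libraries (log2 fold change -1.29 ± 0.142, adjusted p = 9.00e-05), and LAMA5, the α chain of laminins that α3β1 and α6β1 bind, had 162, 153 and 176 CPM in siCRP2 libraries, against 273, 291 and 373 CPM in siCTR libraries (log2 fold change -0.93 ± 0.111, adjusted p = 2.43e-05). COL6A2, which joins COL6A1 in the collagen VI trimer, averaged 92.9 ± 5.20 CPM in siCRP2 libraries and 145 ± 12.7 CPM in siCTR libraries (SD, n = 3; log2 fold change -0.64 ± 0.0897, adjusted p = 5.12e-05). These 4 genes were lower in every siCRP2 library. The 5 ligands that rose were CCN1, COL1A1, COL4A2, FBN1 and CDH1, named here after their values were seen. CCN1, a matricellular protein that binds αv and β1 integrins, had 2093, 2103 and 2444 CPM in siCRP2 libraries, against 673, 643 and 1101 CPM in siCTR libraries (log2 fold change 1.46 ± 0.230, adjusted p = 0.00584), and COL1A1, the other collagen I chain, had 22.5, 18.5 and 22.0 CPM in siCRP2 libraries, against 13.9, 11.2 and 15.2 CPM in siCTR libraries (log2 fold change 0.64 ± 0.139, adjusted p = 0.00239). The collagen I chains thus moved in opposite directions, each without overlap.

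Of 31 integrin regulators and trafficking genes tested, 5 fell and 8 rose (median 0.11). At a mean of at least 1 CPM this was 17.2% lower and 27.6% higher, against 17.8% and 21.9% of all genes, which is near that background. CIB1, a calcium-binding protein that binds integrin α tails, had 19.5, 22.6 and 22.5 CPM in siCRP2 libraries, against 52.5, 61.2 and 57.8 CPM in siCTR libraries (log2 fold change -1.41 ± 0.107, adjusted p = 9.13e-08). APBB1IP (RIAM), which brings talin to the membrane with Rap1, had 73.2, 68.4 and 79.0 CPM in siCRP2 libraries, against 27.5, 29.8 and 35.4 CPM in siCTR libraries (log2 fold change 1.25 ± 0.108, adjusted p = 3.55e-07). These changes were opposite in direction and each was without overlap. Smaller changes were seen for RAB11FIP1, an effector of the recycling GTPase Rab11 (log2 fold change 0.57 ± 0.0811, adjusted p = 6.52e-05), and CD82, a tetraspanin partner of integrins (log2 fold change -0.56 ± 0.0861, adjusted p = 1.34e-04).

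Other adhesion adaptors moved both ways, 10 lower and 13 higher of 38 tested (median 0.03). At a mean of at least 1 CPM 25.0% were lower and 36.1% higher, against 17.8% and 21.9% of all genes. ACTN4, the actin crosslinker α-actinin-4, had 269.7, 371 and 351 CPM in siCRP2 libraries, against 1116, 976 and 1130.1 CPM in siCTR libraries (log2 fold change -1.70 ± 0.116, adjusted p = 8.85e-08). TNS4, a tensin of epithelial cancers, had 32.5, 29.5 and 30.1 CPM in siCRP2 libraries, against 62.3, 75.5 and 72.8 CPM in siCTR libraries (log2 fold change -1.19 ± 0.102, adjusted p = 3.22e-07), and LPXN, leupaxin, a further paxillin paralogue, had 6.51, 6.10 and 6.40 CPM in siCRP2 libraries, against 18.5, 14.3 and 14.0 CPM in siCTR libraries (log2 fold change -1.30 ± 0.152, adjusted p = 9.16e-06). PHLDB2 (LL5β), which anchors microtubules next to focal adhesions, was higher with 182 ± 3.25 CPM in siCRP2 libraries and 104 ± 6.36 CPM in siCTR libraries (SD, n = 3; log2 fold change 0.80 ± 0.0823, adjusted p = 2.52e-06). Of the 3 paxillin family members, TGFB1I1 and LPXN were thus lower, while PXN did not pass the test.

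The ratios within each library code were also counted. Of the 13 integrins with a mean of at least 1 CPM, 11 were lower in the siCRP2 library of all 3 codes, ITGB2 was higher in all 3, and ITGA5 was mixed. Of the 18 adaptors at that level, 8 were lower in all 3 codes, 6 were higher in all 3, and PXN, ZYX, FERMT2 and ARHGEF7 were mixed. Over the 13196 genes at that level, 33.6% were lower and 41.8% higher in all 3 codes, so the adaptor counts lay near that background. Libraries of the same code deviated together, and with the code as a replicate block 8 more members passed, none was lost, and 4 adaptors rather than 2 were higher. The block raised the number of calls over all genes as well, in both directions, as counted in the section on processing below. The 8 were ITGB4, ITGB6, ITGB8, PTK2B, ZYX, ILK, PARVA and FERMT1, whose blocked adjusted p-values stand beside their values above. The blocked values lean on the spread of other genes and do not measure the spread of the 3 ratios alone. ITGB6 passed although its log2 ratios by code were 0.69, -1.43 and -2.77.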

How the data were processed

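The authors aligned paired-end reads of poly(A)-selected libraries to GRCh38 with STAR and deposited the raw gene counts from its counting option, 1 column per library. The sources used here give no STAR version, annotation or strand setting, and the labels and the methods differ on whether the kit marked strand. Columns were assigned to groups by name. After a filter (a count in 2 or 3 libraries of either group) 23806 genes were scaled by TMM and tested by edgeR's robust quasi-likelihood test (edgeR 4.0.16, R 4.3.3). Names, coordinates and exon lengths came from GENCODE 44 (57754 of 58395 identifiers). Members near 0 are given as sums of counts, where counting error limits precision. The test was checked on simulated counts. Alternatives were a replicate block by code, DESeq2 (1.42.0) and its size factors, edgeR's exact test, other filters, a 1.5-fold minimum and leaving out each library.

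Over 10828 genes, deviations from the group means correlated between libraries of the same code at 0.721, 0.459 and 0.744, and between different codes at -0.673 to 0.111. Deviations in a group sum to 0 for each gene, so positive values within codes tend to make those between codes negative. The codes, taken from the column names, were used as pairs in the ratios within a code and in the replicate block. The main edgeR test and the permutation tests did not use them. The codes could not be matched to the labels' replicate numbers. A further gene list and some sequence windows are not reported here. Members, lists and tests were chosen with earlier results of these data known. Members at an adjusted p under 0.05 are named with all library values, and from each further list up to 4 called genes with the smallest p and a mean of at least 1 CPM.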

Additional observations from a re-analysis of the deposited data

How the results depend on the processing

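Of the 18 called members, 13 passed under all 12 alternatives with a fit, and ITGAV, ITGB1, TLN2, VCL and GIT1 did not. With a fold change of at least 1.5, 5 integrins and 3 adaptors were lower and 0 adaptors higher (also 0 at an unadjusted p under 0.05 in edgeR and 0 in DESeq2), with 1091 genes higher over the whole table, 3 ligands higher, 2 regulators lower and 1 higher and 3 other adaptors higher. The replicate block gave 4 of 20 adaptors higher, 4229 of 23806 genes lower and 4644 higher and 8 regulators lower. It changed no other count given here by over 1.5 times. The share of adaptors higher with the block lay near that of all genes. Leaving out each library gave 1 to 2 adaptors higher (1 without any siCRP2 library or siCTR 0611), 1933 to 3128 genes higher (lowest without siCRP2 1311), 3 to 6 ligands higher (3 without siCRP2 0611 or siCTR 0611), 8 to 12 other adaptors higher (lowest without siCRP2 1311) and an adaptor median of -0.32 (without siCTR 0611) to -0.11 (without siCTR 1311), which was -0.18 with filterByExpr. The cause of these shifts was not tested. Uncalled members near 0 changed sign. ITGA5 was 0.00 with DESeq2, with its size factors and without a filter, -0.03 with filterByExpr and -0.06 to 0.07 with libraries left out. FERMT2 was -0.01, -0.01, -0.01 and -0.04 in that order and -0.05 to 0.11. CRK was -0.01 with filterByExpr and -0.03 to 0.07, and PXN 0.00 with the block and -0.07 to 0.06. With libraries left out, ARHGEF7 ran over -0.07 to 0.00, ITGA7 -0.13 to 0.33, ITGA11 -0.01 to 2.57 and ITGB7 -0.82 to 0.23. Depth limits ITGA4, ITGA8, ITGA9, ITGA11, ITGB6, ITGB7, PARVB and TNS1.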

Other observations

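Surface proteins outside the integrin family moved as well, named here after their values were seen. CD14, a co-receptor for lipopolysaccharide best known from monocytes, had 9.63, 10.4 and 9.09 CPM in siCRP2 libraries, against 29.7, 33.9 and 38.9 CPM in siCTR libraries (log2 fold change -1.82 ± 0.130, adjusted p = 5.42e-08, edgeR quasi-likelihood test). Of 9 platelet and endothelial markers 7 had a mean under 1 CPM. Among the 7 tested, 3 fell (42.9%) and 0 rose, against 11.5% and 12.5% of all genes tested. These were PECAM1, KDR and the scarce PF4. VWF and ITGA2B lay above 0 without passing the test (log2 fold change 0.60 ± 0.488 and 0.76 ± 0.436). PECAM1, a homophilic adhesion molecule, had 4.60, 6.95 and 5.30 CPM in siCRP2 libraries, against 9.64, 21.5 and 15.8 CPM in siCTR libraries (log2 fold change -1.47 ± 0.302, adjusted p = 0.00989). KDR, a VEGF receptor, had 2.75, 1.64 and 2.82 CPM in siCRP2 libraries, against 5.37, 5.07 and 3.98 CPM in siCTR libraries (log2 fold change -0.99 ± 0.234, adjusted p = 0.00483). CD14, PECAM1 and KDR were lower in every siCRP2 library. CDH2, N-cadherin, was scarce and higher, with 2.54, 2.44 and 2.51 CPM in siCRP2 libraries, against 1.38, 0.641 and 0.915 CPM in siCTR libraries (log2 fold change 1.31 ± 0.288, adjusted p = 0.00274), and CDH1, E-cadherin, was also higher, with 35.2, 26.8 and 37.5 CPM in siCRP2 libraries, against 14.3, 16.8 and 21.0 CPM in siCTR libraries (log2 fold change 0.94 ± 0.158, adjusted p = 6.52e-04). Neither cadherin overlapped between the groups.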
